A study of Mus musculus with 47 samples.

Results

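Fatty acid oxidation, ketone body formation and the other targets of PPARA were followed in mouse liver through 36 genes. The genes were taken from a list of names, and each was read from the probe that carried its name on the array, the brightest one where several did. All 36 genes were among the 21746 genes tested, and all were well above background on each of the 47 arrays. By where their products act, 16 are mitochondrial and 9 are peroxisomal. Another 5 belong to signalling and regulation, and 6 to uptake, activation and the lipid droplet.

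The livers came from C57BL/6J littermates of both sexes, aged 6 months, bred from *Pxr*+/- parents and killed 6 hours after lights on (ZT6). The mice were housed with free access to their diet, and the paper describes no fast. *Pxr*+/+ mice carry the pregnane X receptor (gene *Nr1i2*), the xenobiotic sensor of hepatocytes, and *Pxr*-/- mice lack it in the whole body, from an allele engineered in another laboratory and backcrossed. ATB mice received an antibiotic mix in their drinking water for 2 weeks, with vancomycin at 0.5 g/L and both ampicillin and neomycin at 1 g/L, and Cont mice received water without antibiotics. The 8 groups held 6 mice each, apart from *Pxr*-/- Cont males with 5. Each group was housed in a pair of cages, and the cage of a mouse is not given. Every liver was hybridized to 1 single-color array. Values are log2 signals, normalized across arrays, and a gene was called when limma gave a false discovery rate of at most 0.05 over all probes and a fold change above 1.2. The arrays lay on 6 slides washed in 3 batches that held all groups. Their number limits the precision.

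In a fasting liver, fatty acids are taken up, tied to coenzyme A by acyl-CoA synthetases and carried into mitochondria by the carnitine shuttle, where β-oxidation shortens them and the product feeds ketone body formation. Very long and branched chains and dicarboxylic acids are first shortened in peroxisomes by a separate set of enzymes. PPARA is the nuclear receptor that senses fatty acids and raises the genes of both systems, together with hormones and regulators such as FGF21, ANGPTL4 and PDK4. Acyl-CoA thioesterases (ACOT) release the fatty acid from coenzyme A again, and their genes lie side by side in the mouse genome.

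The largest differences among the 36 genes were between the sexes, and they lay in that thioesterase cluster, so the sequence before each of its start sites is shown. The probes of these genes lie in the order *Acot2* (chr12:85334553-85334612), *Acot1* (chr12:85358452-85358511), *Acot4* (chr12:85384821-85384880) and *Acot3* (chr12:85400452-85400511), in the coordinates of the array files (mm9). The 250 bases before each start site are from RefSeq (assembly GRCm38.p6, all on the plus strand): chr12:83987611-83987860 for *Acot2*, chr12:84009252-84009501 for *Acot1*, chr12:84038129-84038378 for *Acot4* and chr12:84051894-84052143 for *Acot3*. Capitals mark CCAAT, searched as CCAAT or ATTGG, and the nuclear receptor motif AGGTCA, searched as AGGTCA or TGACCT.
Acot2: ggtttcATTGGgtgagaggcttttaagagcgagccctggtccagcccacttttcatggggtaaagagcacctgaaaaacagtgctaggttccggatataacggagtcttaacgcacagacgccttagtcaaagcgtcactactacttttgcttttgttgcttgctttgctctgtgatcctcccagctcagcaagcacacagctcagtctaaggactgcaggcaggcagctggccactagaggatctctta
Acot1: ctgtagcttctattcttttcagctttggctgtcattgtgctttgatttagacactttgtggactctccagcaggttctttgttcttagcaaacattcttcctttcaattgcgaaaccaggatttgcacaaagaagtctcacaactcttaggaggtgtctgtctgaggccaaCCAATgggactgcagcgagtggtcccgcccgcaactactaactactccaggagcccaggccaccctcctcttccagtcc
Acot4: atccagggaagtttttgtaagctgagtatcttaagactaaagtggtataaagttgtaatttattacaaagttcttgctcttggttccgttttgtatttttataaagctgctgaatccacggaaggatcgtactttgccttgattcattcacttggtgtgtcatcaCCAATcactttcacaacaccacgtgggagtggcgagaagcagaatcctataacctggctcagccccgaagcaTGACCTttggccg
Acot3: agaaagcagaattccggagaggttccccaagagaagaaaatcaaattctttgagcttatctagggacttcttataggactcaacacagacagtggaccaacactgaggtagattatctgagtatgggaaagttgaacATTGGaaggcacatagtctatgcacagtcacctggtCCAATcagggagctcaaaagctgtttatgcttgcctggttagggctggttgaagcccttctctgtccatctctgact
Each of the 4 sequences holds a CCAAT, and *Acot3* holds 2. AGGTCA is found in that of *Acot4*, near the start site. Across the 32851 promoters of this length in the table, 33.8% hold a CCAAT and 14% hold AGGTCA. The 29 members found there have 35 such promoters, of which 16 hold a CCAAT and 9 hold AGGTCA. Counted by gene, 15 hold a CCAAT and 9 hold AGGTCA (*Acadm*, *Acadvl*, *Acot4*, *Cd36*, *Cpt1a*, *Creb3l3*, *Fabp1*, *Plin2* and *Plin5*). The full direct repeat AGGTCANAGGTCA, which contains that motif at both ends, was in 0 members and in 0.0335% of promoters. Its relaxed form AGGNCANAGGNCA was in 1 member, *Fabp1*, and in 0.338% of promoters. Position by position, the thioesterase promoters match at 24% to 28.8% of their bases, and their start sites are 13765 to 64283 bases apart.

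Before the results, a few facts of the whole series apply. The 75th percentile of the median spot signal was 306 to 492.5 per array, over a median background of 15 to 21. The 1 probe for *Nr1i2* does not test the deletion, since its log2 difference between genotypes was only -0.28 to -0.57 and the groups overlapped. *Cyp2c55*, a cytochrome P450 gene, was called higher in *Pxr*-/- mice in each of the 4 genotype comparisons (log2 2.36 to 3.37), and *Xist* and *Eif2s3y* separated the sexes in every mouse. All 6 hepatocyte markers, among them *Alb* and *Ttr*, were well above background, with a summed signal of 1020000 to 1230000 in any mouse. Of 5 adipocyte markers, *Adipoq* was well above background on 9 arrays and was not tested. The 4 others, *Plin1*, *Lep*, *Fabp4* and *Retn*, were tested, and were well above background on 41, 47, 47 and 46 arrays. Of these, 1 was called higher in males in *Pxr*-/- Cont and in *Pxr*-/- ATB mice, against 2.45% and 2.54% of all genes. Of 8 markers of Kupffer cells and macrophages, 7, 4, 4 and 0 were called lower in males in *Pxr*+/+ Cont, *Pxr*-/- Cont, *Pxr*+/+ ATB and *Pxr*-/- ATB mice, and 5 were called lower in *Pxr*-/- than in *Pxr*+/+ Cont females. Their summed signal was 20800 to 28600 in *Pxr*+/+ Cont males and 39800 to 82900 in *Pxr*+/+ Cont females, and 12300 to 82900 over the other 6 groups. In the same 4 sex comparisons, 5, 0, 0 and 3 of 6 stellate cell and fibroblast markers were also called lower in males. So were 3, 1, 1 and 1 of 6 sinusoidal endothelial and 3, 2, 3 and 3 of 5 T and NK cell markers. Further counts were 1, 3, 1 and 1 of 4 neutrophil and 1, 0, 0 and 0 of 3 B cell markers. They were 0, 0, 1 and 1 of 4 for cholangiocytes and 0, 1, 0 and 1 of 3 for muscle. For hepatocytes they were 0, 1, 0 and 0 of 6. Of all genes, 30%, 13.8%, 9.06% and 23.3% were called lower in males. In *Pxr*-/- against *Pxr*+/+ Cont females, 3 sinusoidal endothelial markers and 1 neutrophil marker were also called lower, against 3.03% of all genes. No marker list had a called gene in any ATB comparison. The part of other cell types in the results was not tested, and in whole liver, fewer cells of a type and less RNA per cell cannot be told apart. The normalization mattered. In the sex comparisons, the median of all genes was shifted to -0.20, -0.13, -0.04 and -0.17 (males less females, in the same order of groups) and was at 0.01 in each when all arrays were quantile normalized. That median was also 0.10 for ATB in *Pxr*+/+ males, and -0.13 and -0.12 for the genotype in ATB males and Cont females. Quantile normalization moved these to -0.00, 0.00 and -0.00. For this reason, values under quantile normalization are given beside the directions.

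To describe how the pathway differed between the sexes, males were compared with females in each of the 4 combinations of genotype and treatment. In *Pxr*+/+ Cont mice, 10 of the 36 genes were called (27.8%, against 32.2% of all genes), with 2 higher and 8 lower in males. In *Pxr*-/- Cont mice, 9 were called (25%, against 16.2% of all genes). The counts were 11 in *Pxr*+/+ ATB mice (30.6%, against 12.5%) and 19 in *Pxr*-/- ATB mice (52.8%, against 25.8%), and all those called in these 3 comparisons were lower in males. Over all genes, 30%, 13.8%, 9.06% and 23.3% were called lower in males. Under quantile normalization, the counts were 10 (6 higher and 4 lower), 9 (2 and 7), 12 (0 and 12) and 14 (1 and 13), against 15.4%, 12.3%, 14.6% and 13.1% of all genes. The sexes did not overlap, with all males below all females, in 5, 7, 8 and 7 of the 36 genes, against 16%, 5.78%, 4.39% and 8.73% of all genes. The calls lost under quantile normalization were 4 in *Pxr*+/+ Cont (*Bdh1*, *Crat*, *Pdk4* and *Cd36*), 2 in *Pxr*-/- Cont (*Crat* and *Acot1*), 0 in *Pxr*+/+ ATB and 6 in *Pxr*-/- ATB mice (*Cpt1a*, *Acadm*, *Decr1*, *Acat1*, *Decr2* and *Plin2*). Whether these counts differed between genotypes or treatments was not tested.

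A total of 6 of the genes were called lower in males in all 4 comparisons, namely *Acot2*, *Acot3*, *Acot4*, *Bdh1*, *Crat* and *Ehhadh*. Under quantile normalization, 4 of them were (*Acot2*, *Acot3*, *Acot4* and *Ehhadh*). The share of all genes called lower in all 4 was not counted, so these names describe the members only. By contrast, 14 genes were called in none of the 4. Among them were some genes of mitochondrial β-oxidation (*Cpt2*, *Slc25a20*, *Acadvl*, *Acads*, *Hadha*, *Acaa2* and *Etfdh*), the peroxisomal enzymes *Acaa1a* and *Hsd17b4*, and *Fabp1*, the fatty acid binding protein of hepatocytes. Other genes of mitochondrial β-oxidation (*Cpt1a*, *Acadm*, *Acadl*, *Hadhb* and *Decr1*) were called in 1 of the 4, *Pxr*-/- ATB mice. Under quantile normalization, *Acads* was called higher in males in 3 of the 4, all but *Pxr*+/+ ATB, and *Acaa1a*, *Hsd17b4* and *Pex11a* were in *Pxr*+/+ Cont mice. The probes of *Acaa1a* differed. The one used gave 0.12, -0.05, 0.17 and 0.04 in *Pxr*+/+ Cont, *Pxr*-/- Cont, *Pxr*+/+ ATB and *Pxr*-/- ATB mice, and a dimmer one gave 0.46, 0.38, 0.34 and -0.09.

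Among the peroxisomal enzymes, *Acot3*, a thioesterase for long acyl chains, stood furthest apart. In *Pxr*+/+ Cont mice, its log2 signal was 7.25 to 9.62 in males (median 9.01) and 12.31 to 13.10 in females (median 12.87). The *Pxr*-/- Cont males were at 7.08, 7.17, 7.50, 7.61 and 8.92 and the females at 11.01 to 13.37 (median 11.61). With ATB, males were at 6.89 to 8.36 (median 7.79) in *Pxr*+/+ and 6.06 to 8.69 (median 6.94) in *Pxr*-/- mice, and females at 12.23 to 13.08 (median 12.90) and 11.52 to 13.29 (median 12.61). Every female was above every male, whatever the genotype and treatment. The log2 difference in *Pxr*+/+ Cont mice was -4.14 ± 0.39 (SE), a fold change of 17.6 (adjusted p = 3.43e-11). It was -4.12 in *Pxr*-/- Cont, -5.10 in *Pxr*+/+ ATB and -5.52 in *Pxr*-/- ATB mice, where the fold change reached 45.9 (adjusted p = 4.1e-15). A second probe of *Acot3* gave -4.25, -4.23, -5.25 and -5.23.

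*Acot4*, which acts on succinyl-CoA and other short dicarboxylic esters in the peroxisome, was also lower in all males. Its signal was 7.92 to 9.19 in *Pxr*+/+ Cont males (median 8.91) and 10.48 to 10.86 in *Pxr*+/+ Cont females (median 10.66). *Pxr*-/- Cont males were at 8.16, 8.30, 8.43, 8.49 and 8.51, and the females at 9.69 to 10.89 (median 10.09). With ATB, males were at 8.17 to 8.66 (median 8.56) in *Pxr*+/+ and 7.43 to 8.70 (median 7.92) in *Pxr*-/- mice, and females at 10.27 to 10.89 (median 10.58) and 9.87 to 10.72 (median 10.43). Again, the lowest female of a genotype and treatment was above its highest male. The log2 differences were -1.91 ± 0.19 in *Pxr*+/+ Cont, -1.75 in *Pxr*-/- Cont, -2.09 in *Pxr*+/+ ATB and -2.43 in *Pxr*-/- ATB mice (adjusted p = 1.47e-10, 5.72e-09, 1e-11 and 9.16e-14), and a second probe gave -1.70, -1.52, -1.91 and -2.09.

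*Acot2* encodes the mitochondrial thioesterase of the cluster. In Cont mice, its signal was 7.81 to 8.68 in *Pxr*+/+ males (median 8.18), 7.42, 7.58, 7.71, 7.96 and 7.97 in *Pxr*-/- males, 8.73 to 9.76 in *Pxr*+/+ females (median 9.03) and 8.72 to 9.77 in *Pxr*-/- females (median 9.13). In ATB mice, it was 7.05 to 7.87 (median 7.38) and 6.72 to 7.82 (median 6.89) in *Pxr*+/+ and *Pxr*-/- males, and 8.82 to 9.75 (median 9.07) and 8.50 to 9.76 (median 9.20) in the females. The sexes did not overlap in any of the 4 comparisons, and the female medians were within 9.03 to 9.20. The log2 difference was -0.87 ± 0.22 (adjusted p = 0.00213) in *Pxr*+/+ Cont, -1.49 ± 0.23 in *Pxr*-/- Cont, -1.76 ± 0.22 in *Pxr*+/+ ATB and -2.03 ± 0.22 in *Pxr*-/- ATB mice.

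*Acot1*, its close neighbour, encodes the cytosolic enzyme and behaved less uniformly. Its signal was 11.69 to 13.09 in *Pxr*+/+ Cont males (median 11.93) and 11.42 to 14.26 in *Pxr*+/+ Cont females (median 12.15), and the sexes overlapped widely. For *Pxr*-/- Cont mice, males were at 11.50, 11.56, 11.92, 12.14 and 12.29 and females at 11.95 to 14.76 (median 13.02). With ATB, males were at 10.33 to 11.64 (median 11.08) and 10.60 to 12.09 (median 11.16), and females at 11.80 to 13.54 (median 12.64) and 12.10 to 13.95 (median 13.18), in *Pxr*+/+ and *Pxr*-/- mice. Thus the sexes of ATB mice did not overlap. The log2 difference between the sexes was -0.34 ± 0.40 (adjusted p = 0.508) in *Pxr*+/+ Cont mice, and it was called at -1.28 ± 0.42, -1.60 ± 0.40 and -1.88 ± 0.40 in *Pxr*-/- Cont, *Pxr*+/+ ATB and *Pxr*-/- ATB mice (adjusted p = 0.0308, 0.00462 and 0.000498). The call in *Pxr*-/- Cont mice was lost under quantile normalization, and also without *Pxr*-/- Cont female replicate 2 (adjusted p = 0.093), among 6 of 11 mice with this effect. *Acot1* and *Acot2*, like *Acot3* and *Acot4*, are close paralogs, and how far each probe reads its neighbour is uncertain.

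**Figure D1:**
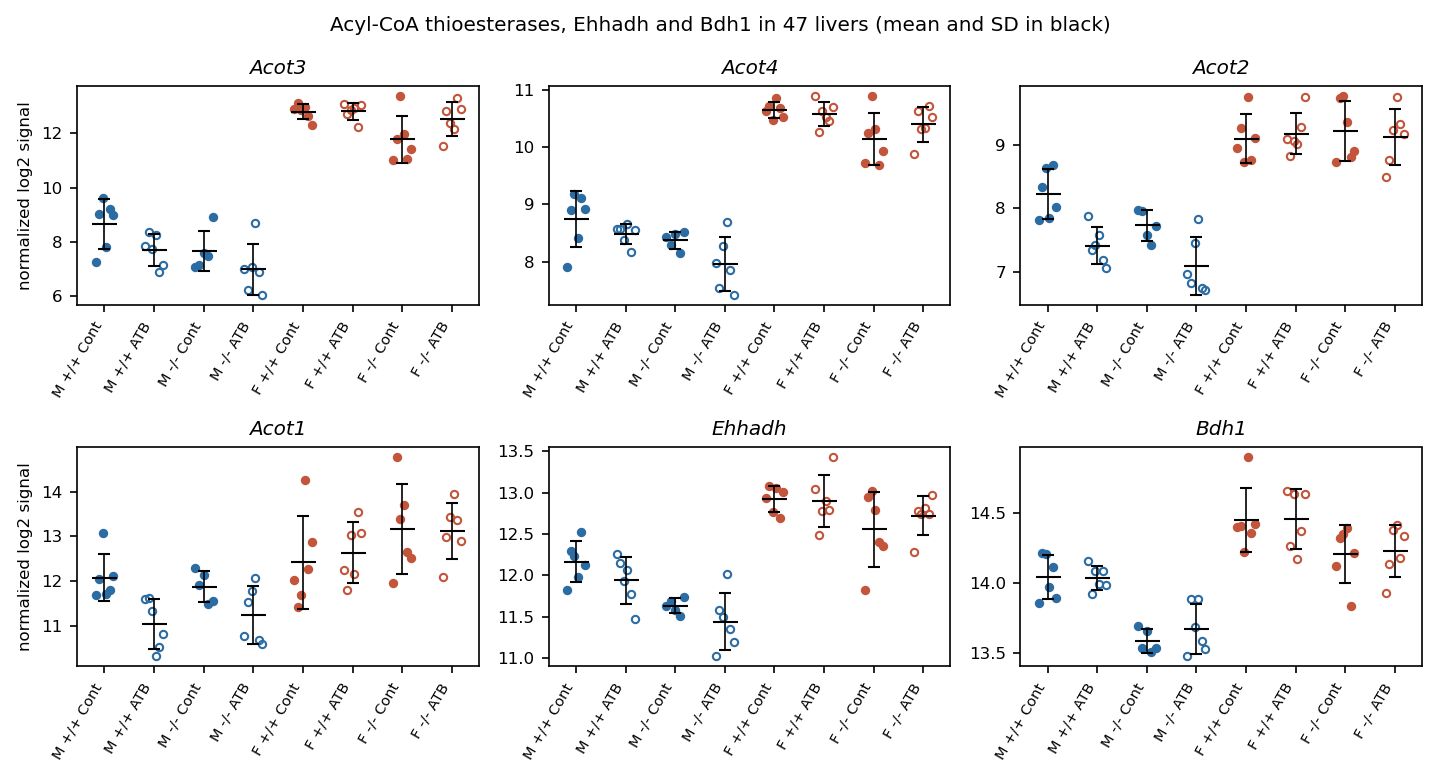
Normalized log2 signal of 6 genes in 47 livers, by sex (M, F), Pxr genotype and treatment (filled, Cont; open, ATB), with the mean and SD of each group in black. *Acot3*, *Acot4*, *Acot2*, *Ehhadh* and *Bdh1* had no overlap between males and females of the same genotype and treatment, whereas *Acot1* overlapped in Cont mice.

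*Ehhadh*, the multifunctional enzyme of the peroxisomal pathway for dicarboxylic and other acyl-CoAs, was lower in males throughout. Its signal in Cont mice was 11.82 to 12.53 in *Pxr*+/+ males (median 12.18), 12.69 to 13.08 in *Pxr*+/+ females (median 12.97), 11.51, 11.58, 11.63, 11.69 and 11.74 in *Pxr*-/- males and 11.83 to 13.03 in *Pxr*-/- females (median 12.59). In ATB mice, *Pxr*+/+ and *Pxr*-/- males were at 11.47 to 12.26 (median 12.00) and 11.02 to 12.01 (median 11.42), and females at 12.48 to 13.43 (median 12.85) and 12.28 to 12.97 (median 12.76). No male reached a female of its genotype and treatment. The log2 differences were -0.76 ± 0.16, -0.92 ± 0.17, -0.96 ± 0.16 and -1.28 ± 0.16 in *Pxr*+/+ Cont, *Pxr*-/- Cont, *Pxr*+/+ ATB and *Pxr*-/- ATB mice (adjusted p = 0.00055, 0.000141, 3.23e-05 and 9.54e-08).

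*Acaa1b*, a thiolase that ends the peroxisomal cycle, went the other way in *Pxr*+/+ Cont mice. It was at 14.79 to 15.44 in *Pxr*+/+ Cont males (median 15.09) and 14.23 to 14.82 in the females (median 14.53), which overlapped by a narrow margin. The log2 difference was 0.59 ± 0.19 (adjusted p = 0.017). In *Pxr*-/- Cont mice, males at 14.25, 14.45, 14.55, 14.59 and 14.67 lay within the females at 13.45 to 14.78 (median 14.42), and with ATB the males were at 14.12 to 14.999 (median 14.49) and 13.59 to 14.63 (median 14.13) in *Pxr*+/+ and *Pxr*-/- mice against 13.98 to 14.73 (median 14.20) and 13.59 to 14.64 (median 14.41) in females. The differences of 0.22, 0.21 and -0.14 in these comparisons were not called (adjusted p = 0.476, 0.564 and 0.583). *Abcd3*, a transporter of acyl-CoAs into the peroxisome, was the only other member called higher in males, with 0.31 ± 0.12 in *Pxr*+/+ Cont mice (adjusted p = 0.0465), a call lost without *Pxr*+/+ Cont female replicate 1 (adjusted p = 0.147) and in 7 of 12 such omissions. *Decr2*, the peroxisomal reductase for unsaturated chains, was called lower in males in *Pxr*-/- ATB mice alone (-0.27 ± 0.09, adjusted p = 0.0278), a call lost under quantile normalization and in 6 of 12 omissions of a mouse, such as that of *Pxr*-/- ATB male replicate 2 (adjusted p = 0.0905).

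In mitochondria, the ketone body enzyme *Bdh1* (β-hydroxybutyrate dehydrogenase) showed a small difference with little spread. Its signal was 13.86 to 14.21 in *Pxr*+/+ Cont males (median 14.04) and 14.22 to 14.90 in *Pxr*+/+ Cont females (median 14.40). *Pxr*-/- Cont males were at 13.51, 13.53, 13.53, 13.65 and 13.69 and females at 13.83 to 14.39 (median 14.27). With ATB, the males were at 13.92 to 14.16 (median 14.04) and 13.47 to 13.88 (median 13.63), and the females at 14.17 to 14.66 (median 14.50) and 13.93 to 14.42 (median 14.25), in *Pxr*+/+ and *Pxr*-/- mice. The sexes were apart in all 4 comparisons, by -0.41, -0.62, -0.42 and -0.56 on the log2 scale (SE 0.11, adjusted p = 0.00326, 7.25e-05, 0.00558 and 0.00013), and a second probe gave -0.41, -0.56, -0.42 and -0.59.

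*Crat*, the carnitine acetyltransferase, was at 10.88 to 11.32 in *Pxr*+/+ Cont males (median 11.07) and 10.84 to 12.11 in *Pxr*+/+ Cont females (median 11.59). *Pxr*-/- Cont males were at 10.77, 10.89, 11.20, 11.23 and 11.28, and females at 11.34 to 12.12 (median 11.81). With ATB, it was 9.81 to 10.95 (median 10.66) and 9.97 to 11.26 (median 10.48) in *Pxr*+/+ and *Pxr*-/- males, against 10.96 to 11.73 (median 11.45) and 11.28 to 12.26 (median 11.58) in females. The sexes overlapped only in *Pxr*+/+ Cont mice. The log2 differences were -0.49 ± 0.20, -0.70 ± 0.21, -0.87 ± 0.20 and -1.09 ± 0.20 (adjusted p = 0.0494, 0.0186, 0.00197 and 6.48e-05), and the first was lost without *Pxr*+/+ Cont female replicate 4 (adjusted p = 0.146) and in 9 of 12 omissions of a mouse. The second was lost in 4 of 11, with an adjusted p of 0.0695 without *Pxr*-/- Cont male replicate 5. A dimmer probe of *Crat* (mean log2 signal 5.58, against 11.21) gave smaller differences of -0.20, -0.32, -0.42 and -0.57.

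In *Pxr*-/- ATB mice, 6 other mitochondrial genes were called lower in males. *Acadl*, the long-chain acyl-CoA dehydrogenase, was at 11.11 to 12.85 in the males (median 12.27) and 12.78 to 13.78 in the females (median 13.40), a log2 difference of -1.21 ± 0.20 (adjusted p = 9.81e-06), while it differed by -0.05, -0.49 and -0.26 in the 3 other comparisons, none of them called. The others were *Cpt1a*, the gatekeeper of the carnitine shuttle (-0.47 ± 0.16), *Hadhb* (-0.47 ± 0.12), *Acat1* (-0.47 ± 0.14), *Acadm* (-0.41 ± 0.13) and *Decr1* (-0.34 ± 0.11). Under quantile normalization, *Acadl* and *Hadhb* remained called and the 4 others were not. *Acadvl* differed by -0.23 with an adjusted p of 0.0375 and stayed under the fold of 1.2.

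Among regulators, *Pdk4*, the kinase that keeps pyruvate out of the citric acid cycle, was at 8.90 to 10.89 in *Pxr*+/+ Cont males (median 9.63) and 9.66 to 11.65 in females (median 10.88). *Pxr*-/- Cont males were at 9.08, 9.49, 9.55, 9.81 and 10.62, and females at 9.84 to 11.85 (median 10.85). Treated males were at 8.20 to 10.03 (median 9.47) and 8.08 to 9.92 (median 8.89), and females at 9.65 to 12.00 (median 11.11) and 9.62 to 11.01 (median 10.69), in *Pxr*+/+ and *Pxr*-/- mice. The sexes overlapped in all 4 comparisons. The log2 difference was -1.04 ± 0.39, -1.83 ± 0.39 and -1.60 ± 0.39 in *Pxr*+/+ Cont, *Pxr*+/+ ATB and *Pxr*-/- ATB mice (adjusted p = 0.034, 0.000696 and 0.0021), and -1.08 ± 0.41 in *Pxr*-/- Cont mice, which was not called (adjusted p = 0.0634). Within the wash batches the *Pxr*+/+ Cont difference was -0.71, -0.69 and -2.74, the last from 1 mouse per group. Without *Pxr*+/+ Cont male replicate 6 it was -0.84 (adjusted p = 0.114), and the call was lost in 8 of 12 omissions of a mouse and under quantile normalization.

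*Fgf21*, the fasting hormone of the liver, had the same order only in part. Its signal was 7.86 to 9.21 in *Pxr*+/+ Cont males (median 8.75) and 7.35 to 8.95 in the females (median 8.08). *Pxr*-/- Cont males were at 6.67, 6.91, 7.53, 7.95 and 8.41 and females at 7.27 to 9.35 (median 8.63). Treated males were at 6.62 to 8.84 (median 7.26) and 6.18 to 7.94 (median 6.48), and females at 7.59 to 9.56 (median 8.65) and 7.56 to 9.30 (median 8.19), in *Pxr*+/+ and *Pxr*-/- mice. All 4 comparisons overlapped. The differences of 0.47 ± 0.38 in *Pxr*+/+ Cont and -0.94 ± 0.40 in *Pxr*-/- Cont mice were not called (adjusted p = 0.339 and 0.107), whereas -1.22 ± 0.38 in *Pxr*+/+ ATB and -1.57 ± 0.38 in *Pxr*-/- ATB mice were (adjusted p = 0.0296 and 0.00242). Without *Pxr*+/+ ATB male replicate 4, the former was -1.04 (adjusted p = 0.0946).

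*Vnn1*, the pantetheinase of coenzyme A turnover and a well-known PPARA target, was at 9.14 to 9.87 in *Pxr*+/+ Cont males (median 9.49) and 9.29 to 11.11 in the females (median 9.76). The difference of -0.42 was not called. *Pxr*-/- Cont males at 8.996, 9.16, 9.17, 9.56 and 9.59 lay below all of the females, at 9.62 to 10.71 (median 10.48). Treated males were at 8.10 to 9.24 (median 8.47) and 8.52 to 9.68 (median 8.80), and females at 9.18 to 10.32 (median 9.85) and 9.47 to 11.27 (median 10.38). The log2 differences called were -1.05 ± 0.28, -1.25 ± 0.26 and -1.46 ± 0.26 in *Pxr*-/- Cont, *Pxr*+/+ ATB and *Pxr*-/- ATB mice (adjusted p = 0.00736, 0.000687 and 5.44e-05).

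*Angptl4*, the secreted inhibitor of lipoprotein lipase, had the widest spread of all 36 genes within groups. It was at 13.08 to 16.28 in *Pxr*+/+ Cont males (median 15.30), 13.47 to 15.75 in *Pxr*+/+ Cont females (median 15.28), 13.86, 15.01, 15.49, 15.83 and 16.04 in *Pxr*-/- Cont males and 15.50 to 16.18 in *Pxr*-/- Cont females (median 15.96). Treated males were at 13.89 to 15.76 (median 14.81) and 13.83 to 15.67 (median 15.14), and females at 15.79 to 16.29 (median 15.92) and 14.79 to 15.97 (median 15.68). *Pxr*+/+ ATB males and females did not overlap, yet the difference of -1.16 ± 0.41 was not called (adjusted p = 0.0547). The differences in the other combinations were -0.04, -0.64 and -0.61, and none was called. *Creb3l3*, a transcription factor that acts with PPARA, differed by -0.18 to 0.01 and was not called in any comparison.

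For uptake, *Cd36*, the fatty acid translocase, was at 8.24 to 9.18 in *Pxr*+/+ Cont males (median 8.80) and 9.16 to 10.099 in the females (median 9.65), and at 7.92, 7.93, 8.04, 8.16 and 8.68 in *Pxr*-/- Cont males against 8.38 to 9.97 in the females (median 9.34). Among ATB mice, males were at 8.09 to 9.22 (median 8.60) and 7.91 to 9.10 (median 8.60), and females at 8.45 to 10.33 (median 9.13) and 8.37 to 9.39 (median 8.98). The groups overlapped slightly in Cont livers and more in ATB livers. The log2 difference was -0.89 ± 0.26 and -1.16 ± 0.28 in *Pxr*+/+ and *Pxr*-/- Cont mice (adjusted p = 0.00909 and 0.00288), and -0.63 and -0.49 with ATB were not called (adjusted p = 0.124 and 0.157). Under quantile normalization, the call in *Pxr*+/+ Cont mice was lost.

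The lipid droplet coat genes *Plin2* and *Plin5* differed less. *Plin2* was called lower in males in *Pxr*+/+ ATB (-0.55 ± 0.19, adjusted p = 0.0493) and *Pxr*-/- ATB mice (-0.65 ± 0.19, adjusted p = 0.00975), and the former call was lost in 10 of 12 omissions of a mouse, with an adjusted p of 0.12 without *Pxr*+/+ ATB male replicate 4. Under quantile normalization, the call in *Pxr*-/- ATB mice was lost. *Plin5* was at 12.75 to 14.07 in *Pxr*+/+ Cont males (median 13.34), 12.09, 12.76, 13.50, 13.65 and 14.12 in *Pxr*-/- Cont males, 13.19 to 13.59 in *Pxr*+/+ Cont females (median 13.49) and 13.61 to 14.84 in *Pxr*-/- Cont females (median 13.71). With ATB, it was 12.68 to 13.73 (median 13.26) and 12.11 to 12.98 (median 12.79) in males, and 12.57 to 13.99 (median 13.40) and 11.97 to 13.85 (median 13.11) in females, in *Pxr*+/+ and *Pxr*-/- mice. It was not called between the sexes. *Acsl1*, the main acyl-CoA synthetase of the liver, was called lower in males in *Pxr*-/- ATB mice (-0.59 ± 0.13, adjusted p = 0.000756).

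**Figure D2:**
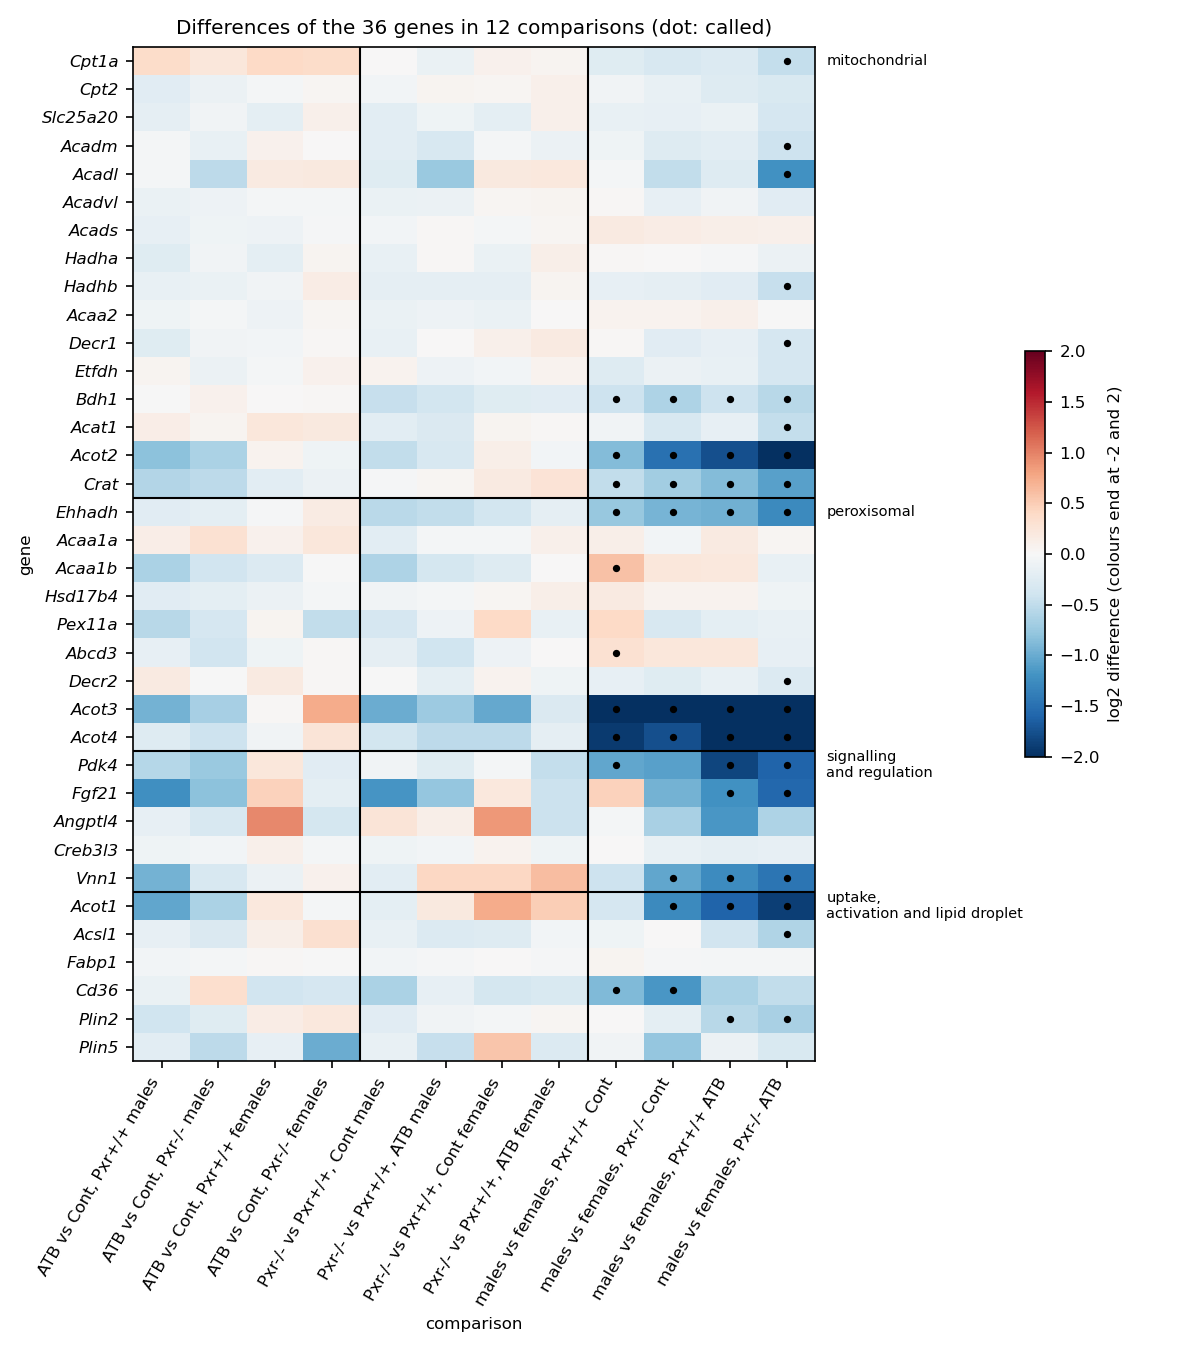
Log2 differences of the 36 genes (rows, by class) in 12 comparisons (columns), with blue for lower and red for higher in the first-named group, and a dot where the gene was called. Dots lie in the 4 sex comparisons only, with 10, 9, 11 and 19 called genes, and the ATB and genotype comparisons hold 0.

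The classes were set side by side by the medians of their sex differences, without a test. In *Pxr*+/+ Cont mice, the median was -0.07 for mitochondrial, 0.12 for peroxisomal, -0.04 for signalling and -0.08 for uptake genes, beside -0.20 for all genes. In *Pxr*-/- ATB mice, the same medians were -0.37, -0.17, -1.46 and -0.54, beside -0.17 for all genes. The signalling median there is the value of *Vnn1*, and the 5 genes of that class were at -1.60 to -0.16. Called genes were 3, 3, 3 and 9 of 16 mitochondrial, 5, 3, 3 and 4 of 9 peroxisomal, 1, 1, 3 and 3 of 5 signalling and 1, 2, 2 and 3 of 6 uptake genes, over *Pxr*+/+ Cont, *Pxr*-/- Cont, *Pxr*+/+ ATB and *Pxr*-/- ATB mice. Of all genes, 32.2%, 16.2%, 12.5% and 25.8% were called, in the same order. Under quantile normalization, the median of all 36 genes was 0.11, -0.13, -0.20 and -0.26 in these comparisons, so that the sign in *Pxr*+/+ Cont mice depends on the scaling.

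To see whether depleting the gut microbiota moved the pathway, ATB was compared with Cont mice of the same sex and genotype. In *Pxr*+/+ males, 0 of the 36 genes were called by limma, against 1.08% of all genes. At an unadjusted p under 0.05 there were 12, of which 11 were lower, against 18.7% of all genes in either direction and 1.5% lower. The log2 difference was below 0 in 31 of the 36 genes and in 23.4% of all genes, with a median of -0.18 in the 36 and 0.10 in all. Under quantile normalization, the medians were -0.31 and -0.00, and 7 of the 36 were called, all lower (*Acadvl*, *Acads*, *Decr1*, *Acot2*, *Acaa1b*, *Pex11a* and *Vnn1*), against 1.15% of all genes. With the authors' processed values, 3 were (*Acot2*, *Acaa1b* and *Vnn1*). The class medians were -0.13 for mitochondrial, -0.22 for peroxisomal, -0.56 for signalling and -0.19 for uptake genes. *Acaa1a* was at 0.14 by the probe used and at -0.38 by its dimmer probe.

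The 12 genes held members of every class. The differences furthest from 0 were those of *Fgf21* (-1.23 ± 0.38, adjusted p = 0.0899), *Acot1* (-1.04 ± 0.40, 0.161), *Acot3* (-0.94 ± 0.39, 0.193), *Vnn1* (-0.94 ± 0.26, 0.0619) and *Acot2* (-0.81 ± 0.22, 0.0507). They were followed by *Acaa1b* (-0.64 ± 0.19, 0.0783), *Crat* (-0.58 ± 0.20, 0.119), *Pex11a*, a factor of peroxisome division (-0.56 ± 0.19, 0.118), *Plin2* (-0.40), and *Decr1* and *Hadha* (both -0.24). *Cpt1a* alone was higher, by 0.37 ± 0.16 (adjusted p = 0.213), and it was above 0 in the 3 other ATB comparisons too (0.22, 0.40 and 0.37), none of them called. The signals given above show where the groups lay. For *Acot1*, all 6 ATB males were below all 6 Cont males, the only non-overlap of the 36 genes here, against 0.244% of all genes that were lower without overlap. For *Acot2*, *Vnn1* and *Acaa1b*, the highest ATB male reached into the range of the Cont males. Within the wash batches, the difference of *Acot2* was -0.72, -0.88 and -0.97, that of *Vnn1* -0.71, -1.35 and -0.82, and that of *Fgf21* -0.84, -1.92 and -1.02.

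In the other ATB comparisons, 0 genes were called by limma as well. In *Pxr*-/- males, 8 had an unadjusted p under 0.05, 7 of them lower, against 7.22% of all genes in either direction and 2.8% lower (called, 0.11%), no gene separated the groups (0.998%), and 31 of the 36 differences were below 0, against 43.3% of all genes. The median was -0.17, beside 0.02 for all genes. In *Pxr*+/+ females, 3 did, 1 of them lower, against 10.7% and 8.99% lower (called, 0.0138%), with a median of -0.01 beside -0.06. In *Pxr*-/- females, 4 did, 2 of them lower, against 11.7% and 1.73% lower (called, 0.0276%), with no gene that separated the groups (0.74%) and a median of 0.03 beside 0.05. The largest differences in females were those of *Plin5* in *Pxr*-/- mice (-0.99 ± 0.28, adjusted p = 0.122) and of *Angptl4* in *Pxr*+/+ mice (0.96 ± 0.41, adjusted p = 0.415). All 6 *Pxr*+/+ ATB females had more *Angptl4* signal than any Cont female, the only such gene of the 36, against 0.11% of all genes.

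*Fgf21*, *Acot1*, *Acot2* and *Vnn1* differed by 0.45, 0.22, 0.08 and -0.11 with ATB in *Pxr*+/+ females. The male response less the female response was -1.68 ± 0.54 for *Fgf21*, -1.25 ± 0.56 for *Acot1*, -0.89 ± 0.31 for *Acot2* and -0.83 ± 0.37 for *Vnn1* (adjusted p = 0.268, 0.355, 0.29 and 0.355). No gene of the 36 was called for this difference, against 0.0414% of all genes, and 6 had an unadjusted p under 0.05, all lower, against 13% of all genes in either direction and 0.372% lower. Of the 36 differences, 30 were below 0, against 15.2% of all genes. The response in *Pxr*-/- less that in *Pxr*+/+ males was called in 0 of the 36 (0.0184% of all genes), with 0 at an unadjusted p under 0.05 (5.11% in either direction and 4.38% lower) and 12 below 0 (70.4%). In females, 0 were called (0%) and 3 had an unadjusted p under 0.05, all lower (9.47% and 1.09% lower), with 13 below 0 (21.5%). For the genotype effect in Cont males less that in Cont females, 0 were called (0.023%) and 2 had an unadjusted p under 0.05, both lower (4.45% and 0.566% lower), with 32 below 0 (29.9%).

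**Figure D3:**
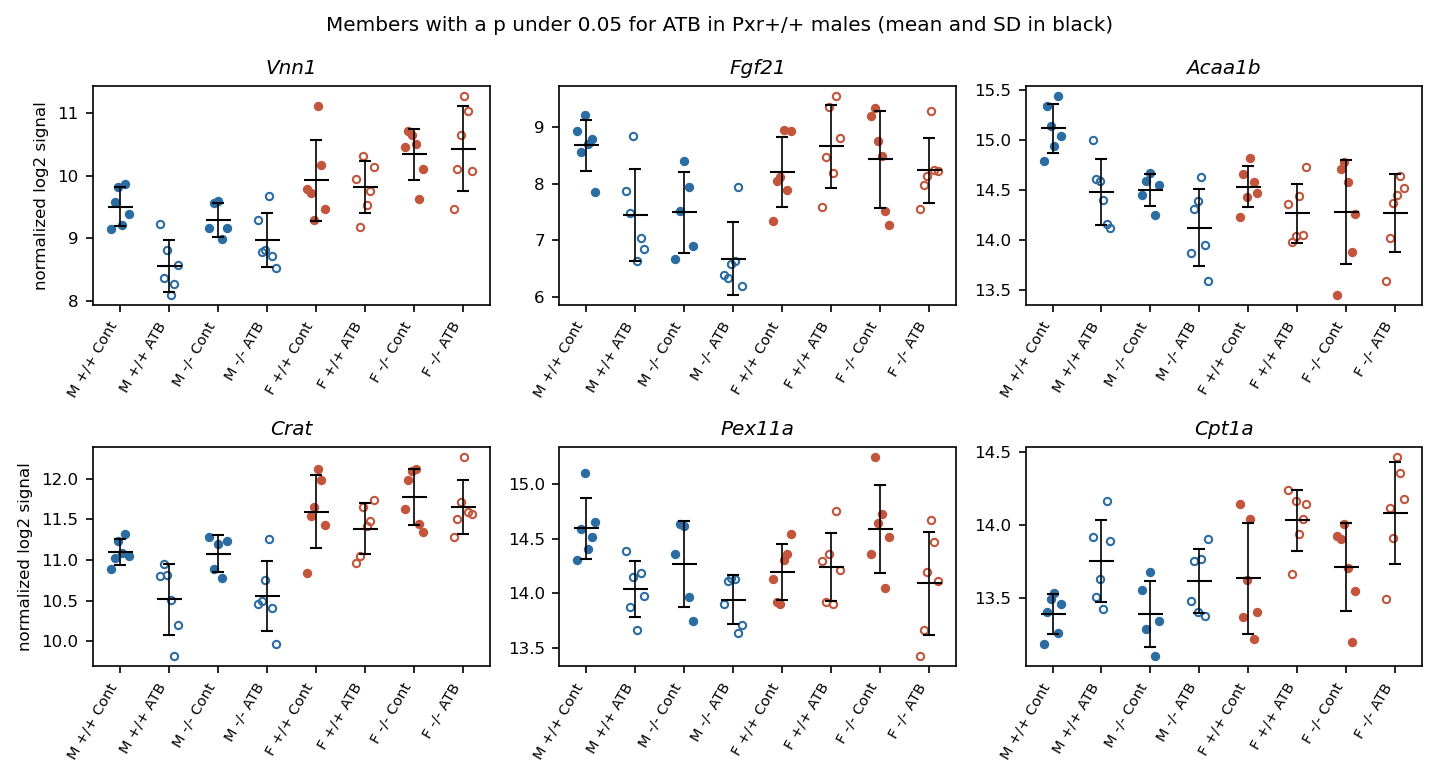
Normalized log2 signal of 6 of the 12 genes with an unadjusted p under 0.05 for ATB in *Pxr*+/+ males, in 47 livers by sex (M, F), genotype and treatment (filled, Cont; open, ATB), with the mean and SD in black. *Vnn1*, *Fgf21*, *Acaa1b*, *Crat* and *Pex11a* have lower means in ATB than in Cont *Pxr*+/+ males and *Cpt1a* a higher one, with 0 called and overlapping groups.

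To ask what the loss of PXR did to the pathway, *Pxr*-/- mice were compared with *Pxr*+/+ mice. These comparisons share the *Pxr*+/+ Cont males with the ATB comparison above, so the values are given without a comparison between the lists. In Cont males, 0 of the 36 were called by limma (0.189% of all genes), 7 had an unadjusted p under 0.05, all lower (5.24% of all genes in either direction and 3.92% lower), and 33 of 36 differences were below 0 (65.5%). In ATB males, 0 were called (0.952%), 10 had an unadjusted p under 0.05, all lower (23% and 21.8% lower), and 28 were below 0 (81.3%). In females, 0 were called with Cont (3.24%) and 0 with ATB (0.216%), with 6 and 2 at an unadjusted p under 0.05 (21.5% and 5.23%), of which 4 and 1 were lower (20.2% and 2.83%). The medians over Cont males, ATB males, Cont females and ATB females were -0.18, -0.13, -0.01 and 0.01, beside -0.04, -0.13, -0.12 and -0.00 for all genes.

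By class, all 9 peroxisomal genes were below 0 in Cont and in ATB males, as were 65.5% and 81.3% of all genes. The peroxisomal medians were -0.33 and -0.36 and the mitochondrial ones -0.15 and -0.11, beside -0.04 and -0.13 for all genes. Under quantile normalization, the peroxisomal medians were -0.29 and -0.22 and the mitochondrial ones -0.12 and 0.01. In females, the peroxisomal medians were -0.11 with Cont and -0.08 with ATB. Among them, *Ehhadh* differed by -0.53 ± 0.17 and -0.50 ± 0.16 in Cont and ATB males (adjusted p = 0.571 and 0.1), *Acaa1b* by -0.62 ± 0.20 and -0.36 ± 0.19 (0.577 and 0.246) and *Acot3* by -0.9996 ± 0.41 and -0.72 ± 0.39 (0.981 and 0.25). None of these was called.

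For 3 genes, all 5 *Pxr*-/- Cont males were below all 6 *Pxr*+/+ Cont males, namely *Bdh1*, *Ehhadh* and *Acaa1b*, against 0.524% of all genes. *Bdh1* differed by -0.46 ± 0.11 in Cont males (adjusted p = 0.0873) and -0.37 ± 0.11 in ATB males (adjusted p = 0.071), where the groups did not overlap either, the only such gene of the 36 (3.06% of all genes). It differed by -0.24 and -0.23 in Cont and ATB females (adjusted p = 0.177 and 0.979). Within the wash batches, the values were -0.48, -0.46 and -0.36 in Cont males and -0.37, -0.33 and -0.41 in ATB males. Under quantile normalization and with the authors' processed values, *Bdh1* was called in Cont males (-0.43 and -0.44, adjusted p = 0.0172 and 0.0106), as it was without *Pxr*+/+ Cont female replicate 4, a mouse that enters only through the shared spread and wash batch (adjusted p = 0.0391). The probes of *Bdh1* (chr16:31457378-31457437, mm9) and *Ehhadh* (chr16:21761914-21761973, mm9) are on the chromosome of *Nr1i2*, at -6.79 and -16.49 Mb from its probe, so that an effect of the deletion and of flanking DNA carried with it cannot be told apart.

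In ATB males, *Acadl* had the largest such difference among mitochondrial genes (-0.74 ± 0.20, adjusted p = 0.0538). Its signal was 12.76 to 12.99 in *Pxr*+/+ ATB males (median 12.93) and 11.11 to 12.85 in *Pxr*-/- ATB males (median 12.27), with a wider spread in the latter. It was called without *Pxr*-/- ATB male replicate 3 (-0.83, adjusted p = 0.0422) or 6 (-0.88, adjusted p = 0.0201). In Cont females, *Acot3* and *Acot4* differed by -1.02 and -0.52 (adjusted p = 0.126 and 0.111), and both were called without *Pxr*-/- Cont female replicate 3 (-1.35 and -0.67, adjusted p = 0.0226 and 0.0204). *Plin5* was higher in every *Pxr*-/- than in any *Pxr*+/+ Cont female (0.55 ± 0.28, adjusted p = 0.253), the only such gene of the 36, against 0.115% of all genes. In ATB females, *Vnn1* was at 0.62 ± 0.26 (adjusted p = 0.912), and no gene separated the groups (0.446% of all genes).

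**Figure D4:**
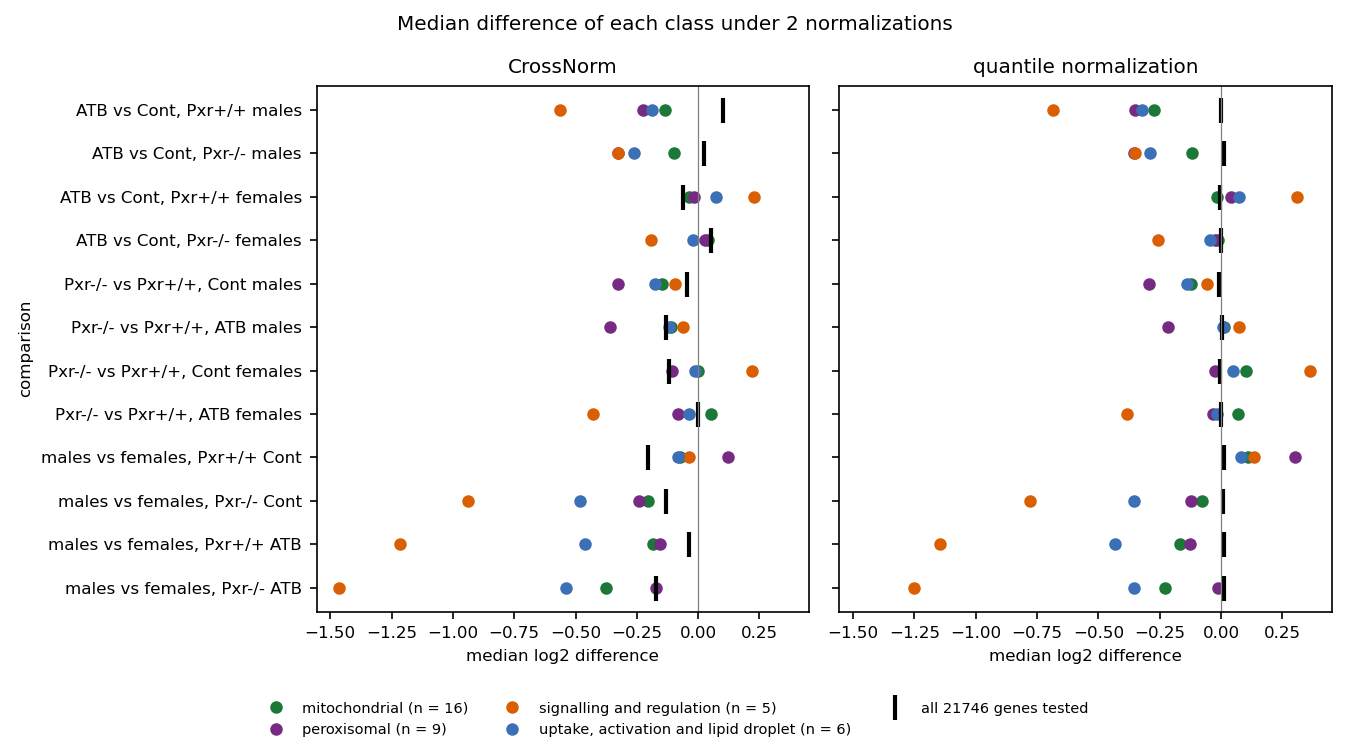
Median log2 difference of each class (colored points) and of all 21746 genes tested (black bars) in 12 comparisons, under CrossNorm (left) and quantile normalization of all arrays (right). The bars for all genes move to about 0 under quantile normalization, and the peroxisomal median in *Pxr*+/+ males with ATB goes from -0.22 to -0.35.

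Beyond the 36 genes, 50 other genes of the pathway were read the same way, all of them tested. For ATB, only *Cyp4a14*, a fatty acid ω-hydroxylase, was called, lower in *Pxr*+/+ males (-2.27, adjusted p = 0.0163), against 1.08% of all genes. After quantile normalization, 2 of the 50 were called lower there, against 1.15% of all genes called. For the genotype, only *Acsl4*, an acyl-CoA synthetase for arachidonic acid, was called, lower in *Pxr*-/- ATB males (-0.57, adjusted p = 0.029), against 0.952% of all genes. It was not called under quantile normalization, where 1 other gene was called, higher in *Pxr*-/- Cont females, against 1.08% of all genes. Between the sexes, 3 were called higher and 12 lower in males in *Pxr*+/+ Cont and 3 and 13 in *Pxr*-/- Cont mice. The counts were 4 and 9 in *Pxr*+/+ ATB and 2 and 25 in *Pxr*-/- ATB mice. Of all genes, 2.18%, 2.45%, 3.44% and 2.54% were called higher and 30%, 13.8%, 9.06% and 23.3% lower. After quantile normalization, the counts were 5 and 4, 3 and 8, 4 and 9, and 4 and 13. Of all genes, 6.99%, 6.03%, 6.32% and 6.78% were then called higher and 8.37%, 6.29%, 8.27% and 6.33% lower. Of the 50, 6 (share of all genes not counted) were called lower in males in all 4 comparisons. They were *Abcd2*, a peroxisomal transporter of very long chains (-2.17, -2.33, -2.37 and -2.87), *Hacl1*, the lyase of phytanic acid α-oxidation (-1.07, -0.69, -0.80 and -1.01), and *Slc22a5*, the carnitine importer (-0.69, -1.03, -1.07 and -1.15), with the ω-hydroxylases *Cyp4a10* (-0.9985, -1.83, -2.20 and -3.17) and *Cyp4a14* (-1.56, -4.07, -4.79 and -4.78) and the mitochondrial carrier *Ucp2* (-0.94, -0.97, -0.67 and -0.40). *Abcd2* and *Hacl1* did not overlap between the sexes in any comparison and were called in all 4 under quantile normalization, and the others in 3. Higher in males in all 4, under both normalizations, were *Phyh*, the first enzyme of phytanic acid α-oxidation (0.46, 0.66, 0.70 and 0.65), and *Scp2*, a peroxisomal thiolase and sterol carrier (0.30, 0.30, 0.39 and 0.33). *Ppara* itself was called in *Pxr*-/- ATB mice only (-0.49, adjusted p = 0.0184), and not under quantile normalization.

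The genes also differed in how far mice of the same group spread. The SD within groups was 0.74 for *Angptl4*, 0.72 for *Acot1*, 0.70 for *Acot3*, 0.69 for *Pdk4*, 0.69 for *Fgf21* and 0.50 for *Plin5* on the log2 scale. These lay at the 97.9th to 99.5th percentile of all genes. At the other end were *Fabp1* (0.0775) and *Acads* (0.125). The mean log2 signal of *Fabp1* was 18.02, and whether the scale is compressed at such a signal was not tested.

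Finally, 6 pairs of genes were compared over the 47 mice as deviations from their group means, with permutations within groups. *Acaa1a* and *Acaa1b*, the neighbouring thiolase genes, moved together (Pearson r = 0.61, permutation p = 3e-05, adjusted 0.00018; Spearman rho = 0.64, permutation p = 1e-05, the smallest that the permutations can give). Without the 2 mice farthest from the median, r was 0.54, and it was 0.57 in males and 0.63 in females, 0.59, 0.73 and 0.32 within the wash batches and 0.45 under quantile normalization. The median r of the 36 peroxisomal pairs was 0.593. How far the probes of these paralogs read each other was not tested. *Pdk4* and *Fgf21* had r = 0.47 and rho = 0.45 (permutation p = 0.00244 and 0.00356, adjusted 0.0049 and 0.006), with 0.39 without the 2 mice, 0.33 in males, 0.61 in females and 0.50, 0.39 and 0.51 within batches.

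*Pdk4* and *Angptl4* went in opposite directions, with r = -0.47 and rho = -0.45 (permutation p = 0.00245 and 0.004, adjusted 0.0049 and 0.006) and r = -0.47 without the 2 farthest mice. Within the wash batches, r was -0.42, -0.59 and -0.43. It was -0.83 in the 23 males and 0.11 in the 24 females, so the pooled value rests on the males, and the difference between the sexes was not tested. Of all 630 pairs of members, this pair had the lowest r, while the median r was 0.52 (0.39 under quantile normalization) and that of *Acot3* and *Acot4* was 0.88 under both. *Pdk4* and *Cpt1a* (r = -0.13, rho = -0.09) and *Plin2* and *Cd36* (r = 0.21, rho = 0.25) gave permutation p = 0.408 and 0.173 for r (adjusted 0.408 and 0.208) and 0.558 and 0.114 for rho.

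**Figure D5:**
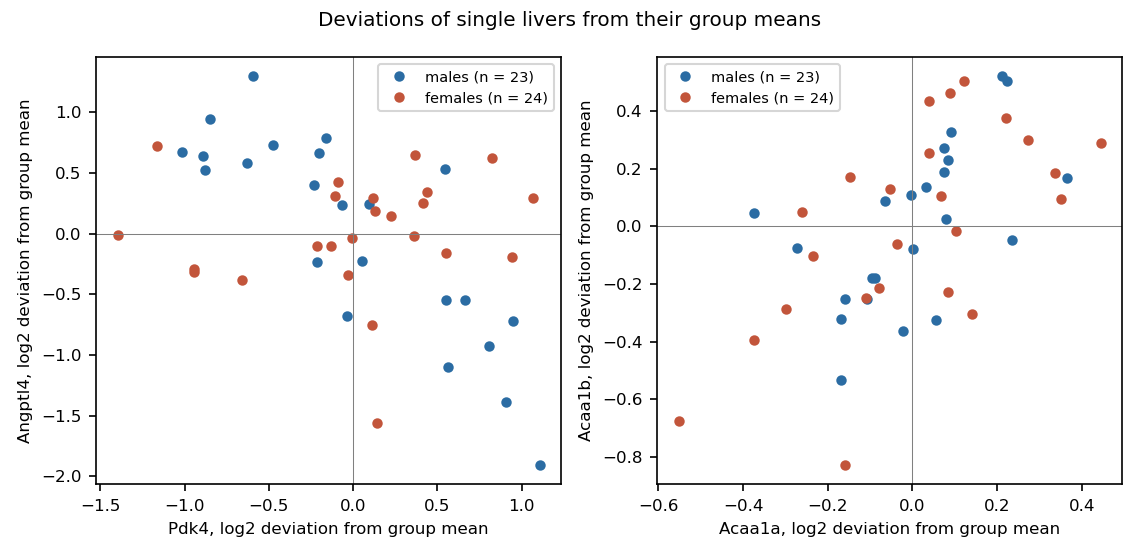
Log2 deviation of each liver from its group mean for *Pdk4* against *Angptl4* (left) and *Acaa1a* against *Acaa1b* (right), with males (n = 23) and females (n = 24) in different colors. The left cloud falls in males (r = -0.83) and is flat in females (0.11), and the right cloud rises in both (0.57 and 0.63).

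*Hadha* and *Hadhb* encode the subunits of the mitochondrial trifunctional protein and are read from a shared stretch of DNA in opposite directions, which is why it is shown. It is the 250 bases before the start site of *Hadha* (RefSeq, GRCm38.p6, chr5:30154981-30155230, minus strand), of which 228 are shared with the same window of *Hadhb*, and the start sites are 273 bases apart. Capitals mark TTCNNNGAA, the STAT5-like motif, which reads the same on both strands and was in 7.02% of promoters and in 3 members (*Cpt2*, *Hadha* and *Hadhb*).
Hadha: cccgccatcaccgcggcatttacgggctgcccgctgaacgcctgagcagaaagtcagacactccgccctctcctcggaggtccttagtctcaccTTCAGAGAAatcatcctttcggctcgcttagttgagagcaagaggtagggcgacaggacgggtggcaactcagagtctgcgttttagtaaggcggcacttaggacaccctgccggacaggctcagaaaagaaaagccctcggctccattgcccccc
Over the 47 mice, *Hadha* and *Hadhb* had r = 0.48 and rho = 0.45 (permutation p = 0.00433 and 0.00327, adjusted 0.00649 and 0.006). The value was 0.41 without the 2 farthest mice, 0.24 in males, 0.65 in females, 0.32, 0.56 and 0.70 within the wash batches and 0.34 under quantile normalization. It lay below the median r of the 120 pairs of mitochondrial genes, 0.595, and below that of all 630 pairs, 0.52.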

How the data were processed

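RNA of 47 livers was hybridized by the authors to single-color Agilent mouse arrays and read with Agilent Feature Extraction 10.10.1.1 (per the submitters' processing notes). The deposited scanner intensity is the median brightness of each spot, with nothing subtracted or scaled. The deposited table of the authors' log2 values (33383 probes, filtered, corrected for wash batch, CrossNorm) was an alternative, and each of its 47 columns correlated best with its own array.

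Here, 422 non-uniform spot values were left out, log2 was taken, spots of a probe were averaged, and the probes tested (32980 of 56605) had 5 or more arrays of some group well above background. The wash batch was removed and CrossNorm applied with 300 random stacks of 1 array per group. The authors' filter and stacking are not given in the sources used here. The processed signal intensity, already background-subtracted by the authors' software, was used in another alternative. limma 3.58.1 (R 4.3.3, data.table version 1.17.8) fitted the 8 groups and wash batch, and adjusted p-values are limma's, over all tested probes. Correlations used 1e+05 permutations. Steps were tested on simulated data. Figures were drawn with matplotlib 3.10.9. The members, classes and lists were chosen with earlier results of these data known. Members described by group were those called for ATB, genotype or a difference of effects, up to 4 per class with the largest sex difference in *Pxr*+/+ Cont mice, and the 6 with the largest spread. *Vnn1*, *Abcd3*, *Acadl*, *Cpt1a* and others were added after their values were seen. The paper states that antibiotics were given in the drinking bottles and that water intake was followed per cage. Mice of a cage thus shared their treatment. The p-values measure the spread between mice, taken as independent, and differences between cages cannot be told apart from those between groups.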

Additional observations from a re-analysis of the deposited data

Results flagged for a closer look

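In groups of 4 to 10 mice, a mouse far from the others of its group was looked for in 13 of the members described by group. *Vnn1*, which was added later, was not searched. In the 104 groups searched, 5 mice stood apart by Dixon's criterion, where chance gives about 1 in 20. They were *Bdh1* in *Pxr*+/+ Cont female replicate 4 (log2 signal 14.90, others 14.22 to 14.42), *Acot3* in *Pxr*-/- Cont male replicate 6 (8.92, others 7.08 to 7.61) and *Ehhadh* in *Pxr*-/- ATB female replicate 1 (12.28, others 12.74 to 12.97). The others were *Acot1* in *Pxr*+/+ Cont male replicate 3 (13.09, others 11.69 to 12.13) and *Fgf21* in *Pxr*-/- ATB male replicate 5 (7.94, others 6.18 to 6.63).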

How the results depend on the processing

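The single gene results followed here were the 65 called in the 12 comparisons, in the main run or under quantile normalization. Having been picked by their calls, they do not test how far other results hold. Of these 65, 0 changed sign under any alternative run. The median of the 36 genes did under quantile normalization in 4 of 12 comparisons, from -0.07 to 0.11 between the sexes in *Pxr*+/+ Cont mice (2 higher and 8 lower calls became 6 and 4), from -0.01 to 0.02 and from 0.03 to -0.03 for ATB in *Pxr*+/+ and *Pxr*-/- females, and from -0.01 to 0.09 for the genotype in Cont females. Of the class medians, the mitochondrial one for the genotype in ATB males went from -0.11 to 0.01, and each class had 2 or 3 such changes. For ATB in *Pxr*+/+ males, where 0 members were called, the count was 7 under quantile normalization, 5 with the processed signal less the 75th percentile, 8 with normexp, 3 with the authors' processed values, 1 when all 47 arrays had to be above background, 1 with the mean of all probes and 5 with only the groups compared, all lower. Leaving out 1 mouse of the groups compared gave 0 to 2 (*Acot2* and *Vnn1* without *Pxr*+/+ ATB replicate 1, *Fgf21* without *Pxr*+/+ ATB replicate 3 and *Acot2* without *Pxr*+/+ Cont replicate 1). Mice of other groups enter through the shared spread and wash batch, and without 10 of these 35, *Acot2* was called (adjusted p = 0.0388 to 0.0468), namely *Pxr*+/+ ATB female replicates 1 and 6, *Pxr*+/+ Cont female 4, *Pxr*-/- Cont female 1, 2, 3 and 5, *Pxr*-/- ATB female 1 and 4 and *Pxr*-/- ATB male 4. *Vnn1* was called too without *Pxr*+/+ Cont female 4 or *Pxr*-/- ATB female 1 (0.0384 and 0.0452). For *Pxr*-/- against *Pxr*+/+ Cont males, 1 was called, *Bdh1*, under quantile normalization, the processed signal, normexp and the authors' values and, among 36 mice of other groups, without *Pxr*+/+ Cont female 4 (adjusted p = 0.0391), and leaving out 1 mouse of the groups compared gave 0 to 0. For ATB males, 1 was called, *Acadl*, with the slide as a block and with the mean of probes, and leaving out 1 mouse gave 0 to 1 (*Acadl* without *Pxr*-/- ATB replicate 3 or 6, and *Ehhadh* at -0.62, adjusted p = 0.0497, without replicate 4). *Acadl* was also called without 4 of 35 mice of other groups, *Pxr*+/+ ATB female 1, *Pxr*-/- ATB female 1, *Pxr*-/- Cont female 3 and *Pxr*-/- Cont male 5 (adjusted p = 0.0426 to 0.0472). For Cont females, it gave 0 to 2 (*Acot3* and *Acot4* without *Pxr*-/- Cont replicate 3). Between the sexes in *Pxr*-/- ATB mice, the count was 12 with the processed signal (1 higher, 11 lower) against 19, and leaving out 1 mouse gave 14 to 23. In *Pxr*+/+ Cont, *Pxr*-/- Cont and *Pxr*+/+ ATB mice it gave 7 to 9, 7 to 13 and 9 to 13. Mice of other groups gave 9 to 10, 9 to 10, 10 to 12 and 19 to 21 over *Pxr*+/+ Cont, *Pxr*-/- Cont, *Pxr*+/+ ATB and *Pxr*-/- ATB. The cause of these differences was not tested. In the 3 other ATB comparisons, the genotype in ATB females and the 4 differences of effects, leaving out any 1 of the mice gave 0 to 0. The number of arrays limits the precision.

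Mice with the same replicate number had deviations correlated at -0.34 to 0.55, and in no comparison were all pairs over 0.1, so the numbers were not taken to pair mice. With the replicate block, 1 member was called for ATB in *Pxr*+/+ males (*Acot2*), and of 65 single results, 62 were on the same side of the threshold, 2 were called in addition and 1 was lost. Quantile normalization left 37 of the 65 on the same side and lost 12. It called the other 16, which were among the 65 for that reason.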
